A study of Mus musculus with 19 samples.

Results

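The amyloid precursor protein gene App, its homologue Aplp2 and the genes of the secretases that cut the App protein were followed in cultured mouse microglia. They were chosen by symbol as App, Aplp2, Bace1, Psen2, Ncstn, Aph1a, Psenen, Adam10 and Adam17, which are 9 of the 16941 genes in the count tables. Microglia, the resident macrophages of the brain, had been isolated from the cortices of C57BL/6 mice at 10 to 11 months of age and grown for 4 weeks with 10% serum and the growth factor M-CSF at 5 ng/mL. RNA with an integrity number above 8.5 was sequenced as QuantSeq 3′ FWD libraries, in which reads lie near the 3′ end of a transcript.

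The 19 libraries fall into 4 groups. Cells from transgenic animals (genotype APP) received lipopolysaccharide (LPS, a bacterial cell wall component sensed by Toll-like receptor 4) in 5 libraries and vehicle in 5 libraries. Cells from wild-type animals (WT) received LPS in 5 libraries and vehicle in 4 libraries. LPS was given at 100 ng/mL for 6 h, vehicle was medium alone, and every culture then had 16 h in fresh medium before RNA was taken. The transgenic line is hAPPJ20, which carries human APP with the Swedish and Indiana mutations under a PDGF promoter. That promoter is chosen for expression in neurons, so the line is a model of neuronal amyloid production. No label ties a library to its own animal or culture. Each p-value below therefore reflects the scatter among libraries, part of which may be technical.

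App is a membrane protein that secretases cut in steps. An α-secretase cut, made mainly by Adam10 and also by Adam17, releases the ectodomain and falls inside the amyloid-β stretch. A β-secretase cut by Bace1 at the start of that stretch competes with it, and γ-secretase, an intramembrane complex of a presenilin such as Psen2, Ncstn, an Aph1 subunit and Psenen, then releases amyloid-β. In macrophages the same enzymes have other known work: Adam17 sheds tumour necrosis factor and its receptors, and Adam10 and Adam17 both shed Trem2, a lipid-sensing receptor of microglia.

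The cuts can be read on the coding sequence of App. In the 695-codon mouse transcript (GENCODE M21, GRCm38, chromosome 16), codons 595 to 641 run from just before the β cut to just after the γ cut. Capitals mark the codons on both sides of the β cut (596 and 597), of the α cut (612 and 613) and of a γ cut (636 and 637).
App amyloid-β region: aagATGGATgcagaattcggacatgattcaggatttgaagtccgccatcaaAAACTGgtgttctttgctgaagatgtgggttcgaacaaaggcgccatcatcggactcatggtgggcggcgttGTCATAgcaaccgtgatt
Both proteins of the family end in a short tail that adaptors bind through the NPTY motif, whose codons are in capitals here. The stretches share 22 of 30 bases.
App tail: ggatatgagAATCCAACTTACaagttcttt
Aplp2 tail: ggttatgaaAACCCAACCTACaaatacctg
The enzymes are recognised by their active sites. The zinc sites of Adam10 and Adam17 are shown with the codons of the 3 zinc-binding histidines in capitals, and they share 26 of 33 bases.
Adam10 zinc site: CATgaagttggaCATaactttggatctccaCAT
Adam17 zinc site: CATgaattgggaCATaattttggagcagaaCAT
Bace1 and the presenilins are aspartyl proteases, and capitals mark the codon of one catalytic aspartate in each.
Bace1 first aspartate: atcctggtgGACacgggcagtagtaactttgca
Psen2 second aspartate: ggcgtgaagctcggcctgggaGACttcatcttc

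A library held 13065257 to 31248988 counts, with a median of 21918747. Libraries numbered 57 to 60 (APP LPS 5, APP vehicle 5, WT LPS 5 and WT vehicle 4) stood apart: the summed level of 18 macrophage and microglia markers was 1852 to 4111 CPM there (counts scaled to a common library total), against 6221 to 11510 CPM in the other 15 libraries. C1qc, a complement gene that marks microglia, was at 90 CPM or more in every library. All 15 markers of fibroblasts, pericytes and smooth muscle were also present in the tables, and their sum was 1249 to 5609 CPM in APP LPS, 1262 to 4819 CPM in APP vehicle, 1783 to 3434 CPM in WT LPS and 1722 to 3096 CPM in WT vehicle. Col1a2, a fibrillar collagen gene, ranged from 57.7 to 1030 CPM. Of the defining markers of other brain cells, Rbfox3 (neurons) had no count in 18 libraries, Snap25 (neurons) and Cldn5 (endothelium) in 15 libraries each and Gfap (astrocytes) in 11 libraries, whereas Mbp (oligodendrocytes) was counted in every library at 5.31 to 60 CPM. The full lists summed to 275.9 to 831.6 CPM for endothelium, 50.63 to 333.5 CPM for astrocytes, 61.36 to 297.9 CPM for neurons and 23.33 to 229.2 CPM for the oligodendrocyte lineage. All levels are CPM on TMM-adjusted library totals.

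Il1b and Tnf, cytokine genes that LPS induces, were the check that the treatment had acted. Il1b averaged 399 ± 200 CPM in APP LPS and 46.2 ± 50.7 CPM in APP vehicle, and 312 ± 96.6 CPM in WT LPS and 39.3 ± 31.4 CPM in WT vehicle (SD; n = 5, 5, 5 and 4). It was higher with LPS in 9 of 9 library pairs and rose by 3.05 ± 0.48 on the log2 scale averaged over genotypes (SE; adjusted p = 0.0148, edgeR's quasi-likelihood test). That call was lost without WT vehicle 1 (adjusted p = 0.0721) or WT vehicle 2 (adjusted p = 0.052).

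**Figure D1:**
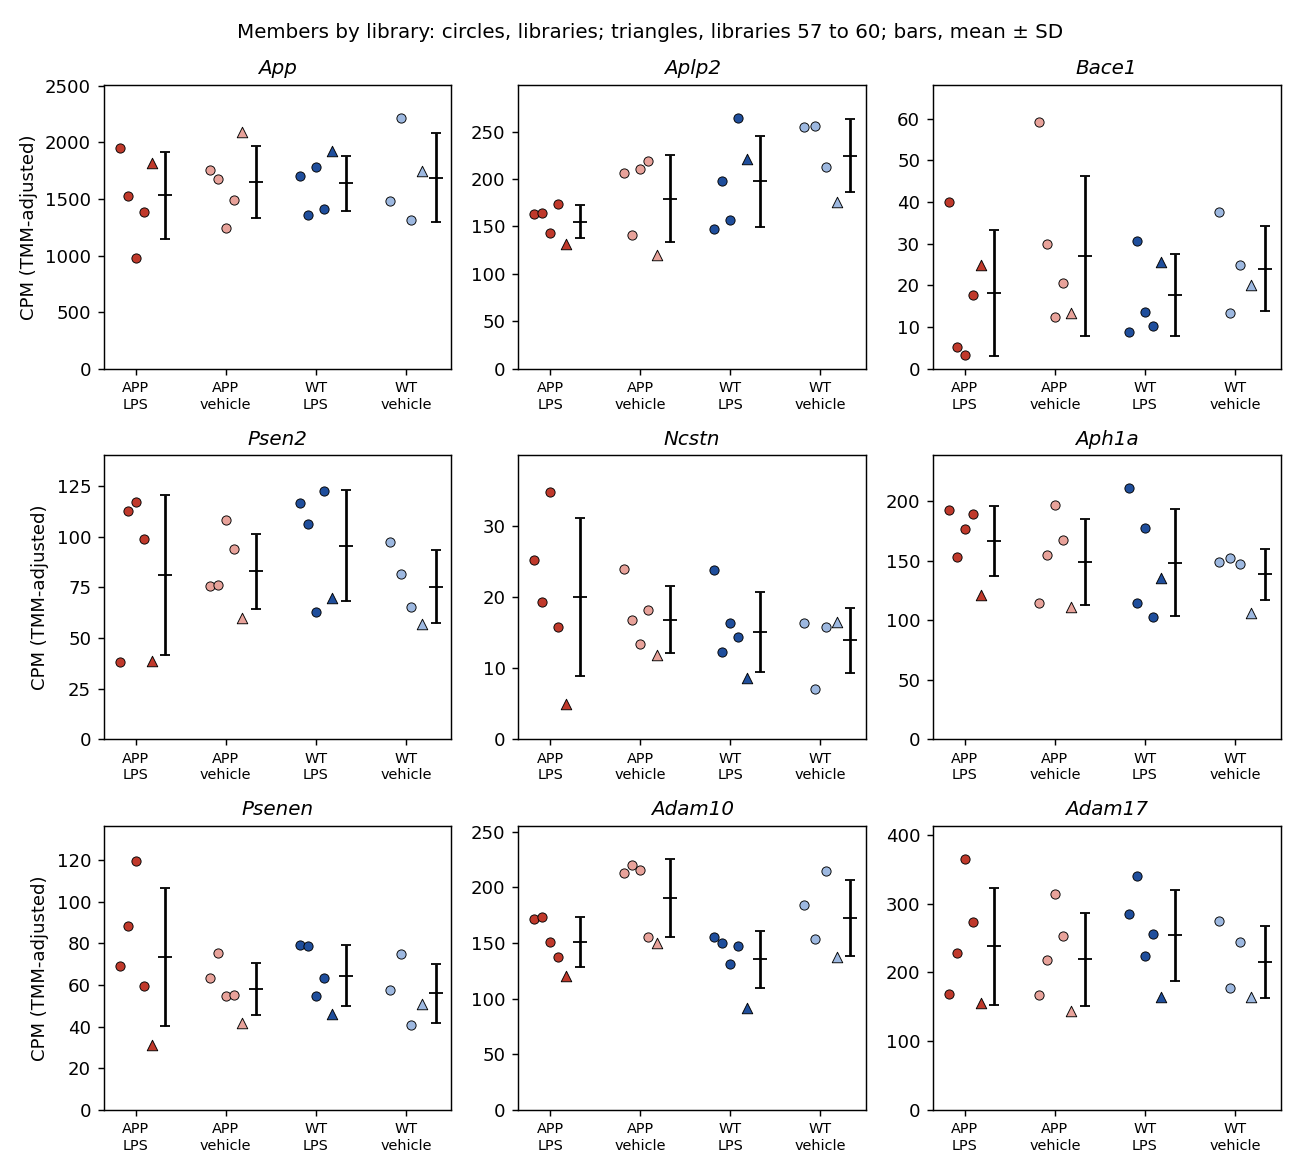
Level of each gene in every library (y axis, CPM on TMM-adjusted totals) in the 4 groups, with triangles for libraries 57 to 60 and bars for the mean ± SD. The ranges of the LPS and vehicle libraries overlap in every panel and both genotypes. In Adam17 the 4 triangles lie at 143 to 165 CPM.

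No member of the pathway was called at an adjusted p under 0.05 in any comparison. In LPS against vehicle averaged over genotypes, 0 of the 9 genes and 3 of 14113 genes tested (0.0213%) were called by edgeR. LPS against vehicle within APP, LPS against vehicle within WT, APP against WT after LPS, with vehicle and averaged over treatments, and the genotype by LPS interaction each called 0 of 14113 genes (0%). In the same order, 679, 516, 482, 402, 486 and 385 genes had an unadjusted p under 0.05. Each of these counts is below a share of 0.05 of the genes tested, the share which that threshold passes when no gene changes. For LPS against vehicle averaged over genotypes the count was 868 genes, which is above that share. DESeq2 called 76, 89, 69, 64, 107 and 99 genes in these comparisons and 178 genes in LPS against vehicle averaged over genotypes, and none of the 9 among them. All 9 genes passed the filter on low counts and had counts in every library, the fewest being 54 counts of Bace1 in APP LPS 3.

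The ranges of the groups overlapped for all 9 genes in each comparison of a pair of groups. Of all genes tested, 0.588% had separate ranges between APP LPS and APP vehicle, 1.38% between WT LPS and WT vehicle, 0.496% between APP LPS and WT LPS and 0.992% between APP vehicle and WT vehicle. Log2 changes with LPS, averaged over genotypes, ran from -0.50 for Bace1 to 0.27 for Psenen with a median of 0.13 over the 9 genes, beside a median of -0.02 over all genes tested. Because these are bulk libraries, fewer cells of a type and less RNA per cell cannot be told apart in any of these values.

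App (GRCm38 chromosome 16, 84949685 to 85173766, minus strand; ENSMUSG00000022892.11) stood at 1951, 1526, 982, 1381 and 1821 CPM in APP LPS 1 to 5 and at 1752, 1674, 1242, 1488 and 2091 CPM in APP vehicle 1 to 5. It stood at 1706, 1355, 1784, 1415 and 1922 CPM in WT LPS 1 to 5 and at 1480, 2217, 1313 and 1743 CPM in WT vehicle 1 to 4. The lowest library was APP LPS 3 and the highest WT vehicle 2 and the ranges of all 4 groups overlapped. Group means were 1532 ± 382 CPM in APP LPS, 1649 ± 315 CPM in APP vehicle, 1636 ± 243 CPM in WT LPS and 1688 ± 395 CPM in WT vehicle, so no neighbours in the order WT vehicle, APP vehicle, WT LPS, APP LPS differed beyond their spread.

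The log2 change of App was -0.06 ± 0.15 for APP against WT averaged over treatments (SE; adjusted p = 0.9999, edgeR) and -0.08 ± 0.15 for LPS against vehicle averaged over genotypes (adjusted p = 0.9999, edgeR). These counts are of the mouse gene symbol and were given without a separate human entry. Whether reads of the human transgene were counted toward App was not tested, so the level of App does not check the genotype labels. The SD of App over the 19 libraries was 0.29 on the log2 scale, smaller than in all but 4.97% of the genes tested, whose median SD was 0.97. Of the 139 genes within 1 log2 unit of its level, 38.8% had a smaller SD.

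Aplp2 (chromosome 9, 31149557 to 31211815, minus strand), the homologue that is cut by the same secretases but holds no amyloid-β stretch, was at 163, 164, 143, 174 and 132 CPM in APP LPS 1 to 5 and at 206, 140.5, 210.4, 219 and 120 CPM in APP vehicle 1 to 5. It was at 147, 198, 156, 265 and 221 CPM in WT LPS 1 to 5 and at 255, 255.5, 213 and 175 CPM in WT vehicle 1 to 4. APP LPS libraries were the most uniform, and the APP values lay toward the lower part of the WT range in both treatments. APP against WT averaged over treatments gave a log2 change of -0.34 ± 0.15 with an unadjusted p of 0.0356 and an adjusted p of 0.9999 (edgeR), which misses the threshold. The change was -0.35 ± 0.21 after LPS and -0.33 ± 0.22 with vehicle, both with an adjusted p of 1 (edgeR). The treatment gave -0.20 ± 0.15 averaged over genotypes (adjusted p = 0.9999, edgeR).

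Of the α-secretase genes, neither passed the threshold with LPS. Adam10 (chromosome 9, 70678997 to 70780229, plus strand) was at 172, 174, 151, 138 and 120.1 CPM in APP LPS 1 to 5 and at 213, 219.9, 215, 155 and 149.7 CPM in APP vehicle 1 to 5. It was at 155, 150.5, 131, 148 and 91.9 CPM in WT LPS 1 to 5 and at 184, 154, 215 and 137 CPM in WT vehicle 1 to 4. Every LPS library but WT LPS 1, which has no partner, was below the vehicle library that carries the neighbouring library number. The means were 151 ± 22.9 CPM in APP LPS and 191 ± 34.9 CPM in APP vehicle, and 135 ± 25.9 CPM in WT LPS and 172 ± 34.3 CPM in WT vehicle.

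Library numbers run in consecutive pairs of vehicle and LPS within a genotype: APP LPS 1 to 5 go with APP vehicle 1 to 5, and WT LPS 2 to 5 go with WT vehicle 1 to 4. The labels do not say that such a pair shares an animal or a culture. Adam10 was lower with LPS in 9 of 9 pairs, by ratios of LPS to vehicle of 0.702 to 0.886 in APP and 0.671 to 0.853 in WT, and 1.06% of all genes tested were lower in all 9. The genes were chosen with earlier results known, so this count is a description. The averaged log2 change of -0.34 ± 0.14 had an unadjusted p of 0.0242 and an adjusted p of 0.723 (edgeR), and it was -0.34 ± 0.19 in APP and -0.35 ± 0.21 in WT. The difference between genotypes in this change was 0.01 ± 0.28 and missed the threshold (adjusted p = 0.9998, edgeR).

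Adam17 (chromosome 12, 21323509 to 21373632, minus strand), which has the related zinc site printed above, did not follow Adam10. It was at 168, 228, 364, 273 and 155 CPM in APP LPS 1 to 5 and at 167, 218, 314, 252 and 143 CPM in APP vehicle 1 to 5. It was at 285, 339.9, 223, 256 and 164 CPM in WT LPS 1 to 5 and at 274, 178, 245 and 165 CPM in WT vehicle 1 to 4. Differences between pairs were much wider than those within pairs, whose ratios of LPS to vehicle were 1.01 to 1.16 in APP and 0.995 to 1.26 in WT. Adam17 was higher with LPS in 8 of 9 pairs, where 11.4% of all genes tested were higher in at least 7 pairs and 0.949% in all 9. The share higher in at least 8 pairs was not counted. Its averaged log2 change of 0.18 ± 0.19 missed the threshold (adjusted p = 0.9999, edgeR), as did 0.12 ± 0.26 in APP and 0.24 ± 0.28 in WT.

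**Figure D2:**
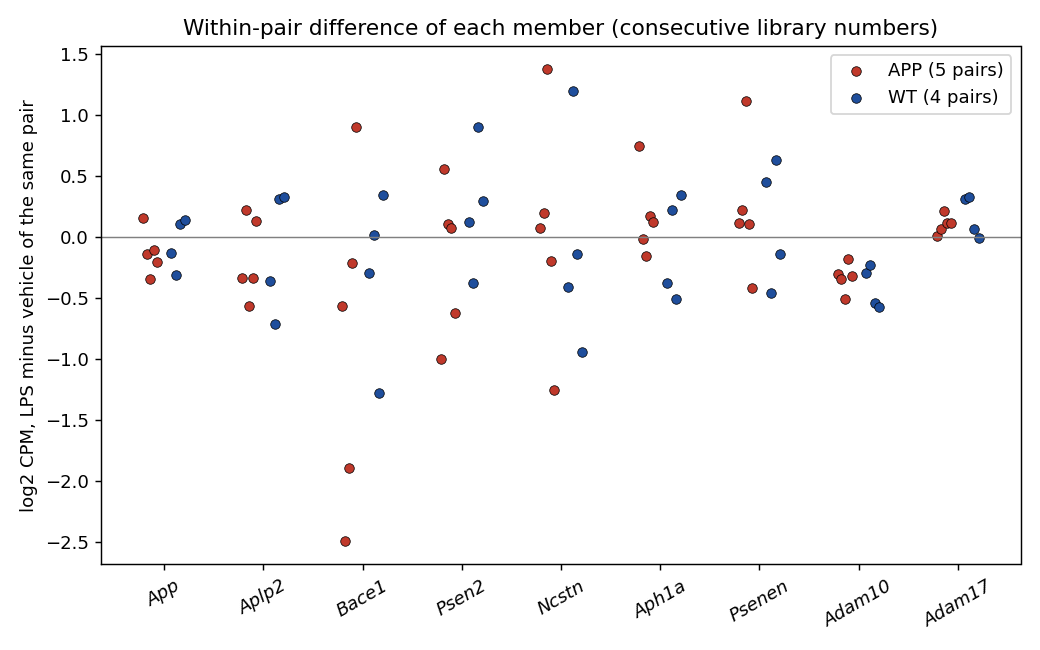
Log2 CPM of the LPS library minus that of the vehicle library with the neighbouring number (y axis), by gene, with red points for the 5 APP pairs and blue points for the 4 WT pairs. All 9 points of Adam10 lie below 0 and 8 of 9 points of Adam17 above it, both over a narrow range, whereas Bace1 runs from -2.49 to 0.90.

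The count of Adam10 divided by that of Adam17 in the same library removes the library total from the comparison, and this ratio was looked at after the values were seen. It was 1.02, 0.763, 0.415, 0.504 and 0.773 in APP LPS 1 to 5 and 1.27, 1.01, 0.686, 0.616 and 1.05 in APP vehicle 1 to 5. In WT LPS it was 0.443 to 0.587 (n = 5), against 0.672 to 0.878 in WT vehicle (n = 4). How often ratios of other genes have separate ranges was not counted. The ratio was lower with LPS in 9 of 9 pairs, which follows from the pair ratios of both genes given above and adds no evidence to them. It is a relation between 2 genes within a library and does not say which of them differed.

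**Figure D3:**
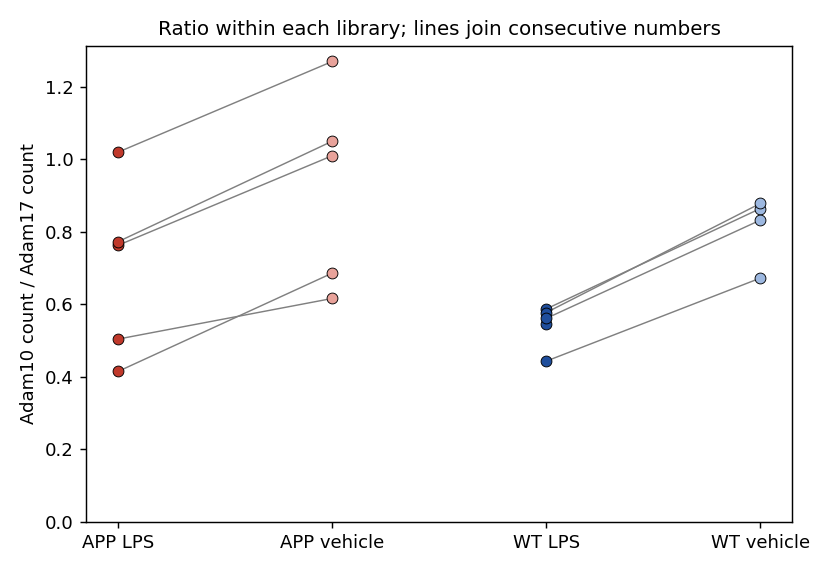
Adam10 count divided by Adam17 count in each library (y axis, no unit) by group, with grey lines between libraries of neighbouring number. Every line is lower at its LPS end. The WT LPS points (0.443 to 0.587) lie below the WT vehicle points (0.672 to 0.878), whereas the APP LPS points (0.415 to 1.02) and APP vehicle points (0.616 to 1.27) overlap.

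Macrophage markers moved with these pairs. The sum of the 18 macrophage and microglia markers was lower with LPS in 9 of 9 pairs, by ratios of 0.664 to 0.943, with a group range of 1852 to 9904 CPM in APP LPS, 2788 to 10930 CPM in APP vehicle, 3119 to 10850 CPM in WT LPS and 4111 to 11510 CPM in WT vehicle. Divided by that sum, Adam10 was lower with LPS in 7 of 9 pairs (ratios 0.764 to 1.21) and Adam17 was higher in 9 of 9 pairs (ratios 1.08 to 1.63), a scaling chosen after the values were seen. The count for Adam17 follows from its pair ratios and those of the marker sum and adds no evidence to them. The part of cell composition in either difference was not tested further. Without libraries 57 to 60 the averaged log2 change was -0.34 ± 0.13 for Adam10 and 0.18 ± 0.18 for Adam17.

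The start regions of these genes, with that of App, whose levels ran opposite to those of Adam17, are given from RefSeq (GRCm38.p6) as 250 bases before and 50 bases after the start. Capitals mark GC boxes (GGGCGG on either strand, overlapping matches merged), the class of site that Sp1 binds.
Adam10, chr9:70678732-70679031, plus strand: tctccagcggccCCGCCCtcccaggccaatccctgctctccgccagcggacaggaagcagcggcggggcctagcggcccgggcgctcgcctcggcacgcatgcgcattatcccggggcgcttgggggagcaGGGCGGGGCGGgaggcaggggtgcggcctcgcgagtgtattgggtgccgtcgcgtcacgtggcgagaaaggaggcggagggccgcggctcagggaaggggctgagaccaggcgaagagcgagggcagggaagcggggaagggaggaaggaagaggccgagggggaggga
Adam17, chr12:21373583-21373882, minus strand: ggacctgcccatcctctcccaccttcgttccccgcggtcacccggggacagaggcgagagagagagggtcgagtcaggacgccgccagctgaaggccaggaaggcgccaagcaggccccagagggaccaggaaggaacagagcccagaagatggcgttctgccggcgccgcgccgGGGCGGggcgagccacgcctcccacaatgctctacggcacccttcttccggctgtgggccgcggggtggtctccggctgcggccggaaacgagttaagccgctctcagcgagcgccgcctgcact
App, chr16:85173658-85173957, minus strand: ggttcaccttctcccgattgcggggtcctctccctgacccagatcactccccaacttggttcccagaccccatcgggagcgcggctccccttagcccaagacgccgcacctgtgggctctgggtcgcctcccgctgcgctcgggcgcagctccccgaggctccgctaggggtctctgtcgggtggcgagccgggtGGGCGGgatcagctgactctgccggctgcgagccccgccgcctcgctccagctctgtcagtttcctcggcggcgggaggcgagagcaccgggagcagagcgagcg
With overlapping matches counted separately, Adam10 holds 3 GC boxes, Adam17 1 and App 1. Of 32851 mouse promoters of the same length, 35.7% hold at least 1. All 3 start regions are rich in G and C (73.3%, 70.0% and 71.0%, against a median of 52.7% over all promoters). The table had entries for 8 of the 9 genes, 10 promoters in all, and in none of these did TATAAA or the NF-κB consensus match on either strand, which 13.6% and 6.9% of all promoters hold. CCAAT, held by 37.4% of all promoters, matched in those of Adam10, Aplp2, Aph1a and Psenen.

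Bace1 (chromosome 9, 45838580 to 45864399, plus strand), the β-secretase, was the least regular of the 9 genes. It was at 39.9, 5.25, 3.28, 17.8 and 24.9 CPM in APP LPS 1 to 5 and at 59.1, 29.97, 12.5, 20.55 and 13.3 CPM in APP vehicle 1 to 5. It was at 8.77, 30.7, 13.55, 10.2 and 25.6 CPM in WT LPS 1 to 5 and at 37.6, 13.4, 24.9 and 20.1 CPM in WT vehicle 1 to 4. The 2 lowest values both came from APP LPS and the highest from APP vehicle, but the groups overlapped throughout. The range over libraries was 18-fold, and Bace1 was lower with LPS in 6 of 9 pairs, by ratios of 0.175 to 1.87. Its averaged log2 change with LPS was -0.50 ± 0.42 (adjusted p = 0.9999, edgeR). The 3′ end of Bace1 overlaps Rnf214 on the other strand by 975 bases, and the strand setting of the counting is not given in the sources used here.

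Of the γ-secretase genes, Psen2 (chromosome 1, 180227004 to 180263438, minus strand), a catalytic presenilin, was at 38.0, 113, 117, 98.9 and 38.8 CPM in APP LPS 1 to 5 and at 75.8, 76.3, 108, 93.9 and 59.9 CPM in APP vehicle 1 to 5. It was at 117, 106, 62.9, 122 and 69.7 CPM in WT LPS 1 to 5 and at 97.4, 81.7, 65.3 and 56.85 CPM in WT vehicle 1 to 4. APP LPS split into 3 libraries near 100 CPM or above and a pair near 38 CPM, wider than any other group. The log2 change with LPS was -0.03 ± 0.31 in APP and 0.34 ± 0.33 in WT, and the interaction of -0.38 ± 0.45 did not separate them (adjusted p = 0.9998, edgeR).

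Ncstn (chromosome 1, 172066013 to 172082795, minus strand), the subunit that admits substrates to the complex, was at 25.2, 19.3, 34.75, 15.8 and 4.93 CPM in APP LPS 1 to 5 and at 23.85, 16.7, 13.3, 18.1 and 11.9 CPM in APP vehicle 1 to 5. It was at 23.7, 12.3, 16.3, 14.4 and 8.54 CPM in WT LPS 1 to 5 and at 16.3, 7.03, 15.8 and 16.5 CPM in WT vehicle 1 to 4. Both the highest and the lowest value stood in APP LPS. The genotype gave a log2 change of 0.34 ± 0.33 averaged over treatments (adjusted p = 0.9999, edgeR).

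Aph1a (chromosome 3, 95893969 to 95898288, plus strand), a scaffold subunit, was at 192, 153, 177, 189 and 121 CPM in APP LPS 1 to 5 and at 115, 155, 197, 168 and 111 CPM in APP vehicle 1 to 5. It was at 211, 115, 177, 103 and 135 CPM in WT LPS 1 to 5 and at 149, 152, 147 and 106 CPM in WT vehicle 1 to 4. Its 2.05-fold range over the libraries was the narrowest of the 9 genes, and within pairs the ratio of LPS to vehicle ran from 0.702 to 1.68. Its 3′ end overlaps Car14 on the other strand by 521 bases, and that of Adam17 overlaps Iah1 by 311 bases, with the same limit as for Bace1.

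Psenen (chromosome 7, 30561863 to 30563627, minus strand), which completes the complex and activates it, was at 69.0, 88.4, 119.7, 59.3 and 31.03 CPM in APP LPS 1 to 5 and at 63.6, 75.6, 54.95, 55.2 and 41.6 CPM in APP vehicle 1 to 5. It was at 79.3, 78.7, 54.5, 63.6 and 46.3 CPM in WT LPS 1 to 5 and at 57.6, 74.8, 40.9 and 51.1 CPM in WT vehicle 1 to 4. APP LPS 3 was the highest library and APP LPS 5 the lowest. The log2 change with LPS was 0.27 ± 0.21 averaged over genotypes (adjusted p = 0.9999, edgeR), and Psenen was higher with LPS in 6 of 9 pairs. Across the 4 γ-secretase genes and App, Aplp2 and Bace1, between 3 and 6 of 9 pairs were lower with LPS. By comparison, 12.3% of all genes tested were lower, and 11.4% higher, in at least 7 pairs.

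**Figure D4:**
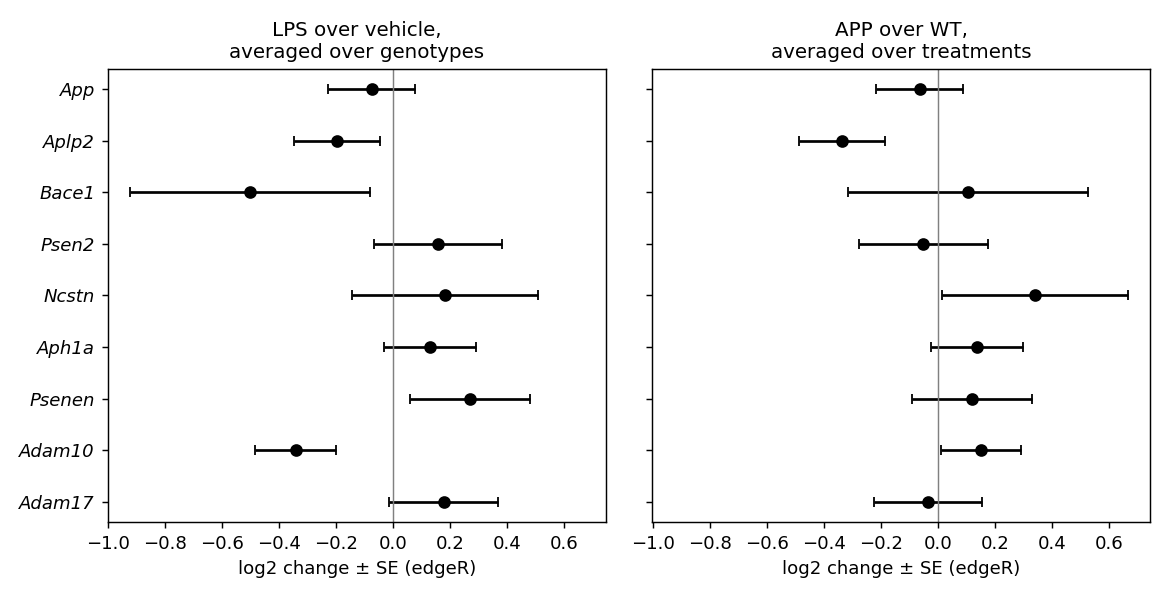
Log2 change with its SE from edgeR's group fit (x axis) for each gene, with LPS over vehicle averaged over genotypes on the left and APP over WT averaged over treatments on the right. With LPS, Adam10 lies at -0.34 and Adam17 at 0.18; for genotype, Aplp2 lies at -0.34; no point passed the adjusted threshold.

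Some of these genes varied together, or oppositely, among the libraries with all groups pooled. App was highest where Adam17 was lowest: the 6 libraries with the highest App (1784 to 2217 CPM) had 143 to 223 CPM of Adam17, and the 6 with the lowest App (982 to 1415 CPM) had 245 to 364 CPM of Adam17. Both sets hold libraries of WT and APP and of LPS and vehicle. Over the 19 libraries the Pearson r of log2 CPM was -0.857 for App with Adam17, the lowest of the 36 pairs of these genes, and 0.777 for Psen2 with Adam17, the highest. Without libraries 57 to 60 these were -0.837 and 0.70 (n = 15). Libraries of a pair may share a culture and all share the TMM scaling, so these coefficients describe the libraries and carry no p-value.

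The marker sums ran with the same axis. App had an r of 0.831 with the summed fibroblast, pericyte and smooth muscle markers and -0.581 with the macrophage and microglia markers, while Adam17 had -0.873 with the first sum and 0.797 with the second, and Psen2 -0.776 and 0.724. Without libraries 57 to 60, the r with the first sum was 0.84 for App, -0.864 for Adam17 and -0.684 for Psen2. For Adam10 the r with macrophage markers was 0.614 over all libraries and 0.227 without those 4 libraries. Which cells the App counts came from was not tested.

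**Figure D5:**
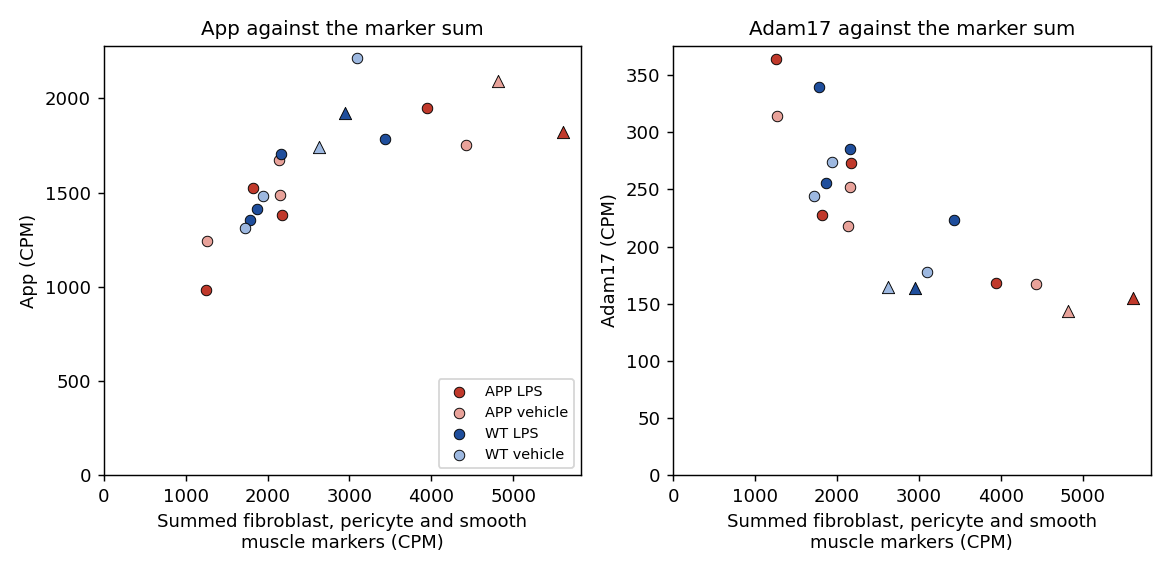
App (left) and Adam17 (right) in each library (y axes, CPM) against the summed level of 15 fibroblast, pericyte and smooth muscle markers (x axes, CPM), coloured by group, with triangles for libraries 57 to 60. App is higher and Adam17 lower in libraries with more of these markers, in all 4 groups.

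In libraries 57 to 60, Adam17 was at 143 to 165 CPM, against 167 to 364 CPM in the other 15 libraries. Adam10 and Adam17 were each the lowest of their group in all 4 of them. Aplp2, Ncstn, Aph1a and Psenen were each the lowest in 3 of the 4, and Psen2 in 2. These libraries were set apart above by low macrophage marker sums. How many of all genes are lowest there, or have separate ranges there, was not counted. App was at 1743 to 2091 CPM there and at 982 to 2217 CPM elsewhere, and Bace1 at 13.29 to 25.57 CPM there and 3.28 to 59.1 CPM elsewhere, each the lowest of its group in 0 of the 4. Psenen was at 31.03 to 51.1 CPM in these libraries, against 40.9 to 119.7 CPM elsewhere.

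By the fixed rule for likeness, the 3 genes whose levels ran closest to each of the 9 were taken from 8240 other genes with a mean of at least 10 CPM, over the 19 libraries. For App these were Yap1, a transcriptional coactivator (r = 0.919), Sparc, a matrix glycoprotein (0.919), and Plat, tissue plasminogen activator (0.914). For Adam17 they were Pik3r5, a regulatory subunit of phosphoinositide 3-kinase (0.96), Cstb, a cathepsin inhibitor (0.926), and Spacdr (0.921). Psen2 ran with Camk1d, Nherf1 and Cpeb2 (0.894 to 0.856). The lysosomal cathepsin Ctsz led the list of Psenen (0.858), and Tcirg1, a subunit of the lysosomal proton pump, that of Ncstn (0.809). Adam10 ran with Rgs2, an inhibitor of G-protein signalling (0.841), and Aplp2 with Mmp12, macrophage elastase (0.779). The closest gene to Bace1 was Zfp9 (0.777) and that to Aph1a was Coa3 (0.726).

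Other genes of the pathway were read from lists chosen for this purpose. Of 8 further family members and subunits, 0 were called in LPS against vehicle averaged over genotypes, and 2 of 8 log2 changes were above 0. Adam9, a related metalloprotease, was lower with LPS in 8 of 9 pairs, with a log2 change of -0.28 ± 0.14 (adjusted p = 0.826, edgeR). Aph1c, a scaffold subunit, and Adam19, a metalloprotease, had log2 changes of -1.04 ± 0.59 (adjusted p = 0.8883, edgeR) and 0.51 ± 0.41 (adjusted p = 0.9999, edgeR). Aplp1 and Bace2 stayed below 20 CPM in every library.

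Of 30 secretase partners and regulators, 0 were called, with 13 log2 changes above 0. Sort1, a sorting receptor, averaged 5.22 ± 2.34 CPM in APP LPS and 20.9 ± 13.7 CPM in APP vehicle, and 15.1 ± 14.2 CPM in WT LPS and 19.8 ± 16.0 CPM in WT vehicle. It was lower with LPS in 6 of 9 pairs, and its averaged log2 change of -1.20 ± 0.50 missed the threshold (adjusted p = 0.723, edgeR). Gsap, γ-secretase activating protein, was higher with LPS in 8 of 9 pairs (log2 change 0.63 ± 0.24, adjusted p = 0.674, edgeR), and so was Ifitm3, an interferon-induced modulator of γ-secretase (0.51 ± 0.24, adjusted p = 0.796, edgeR). Of 18 tested adaptors and binding partners of App (20 listed), 0 were called. Lrp1, an endocytic receptor that binds App, averaged 354 ± 87.9 CPM in APP LPS and 490.1 ± 70.9 CPM in APP vehicle, and 307 ± 101 CPM in WT LPS and 429 ± 62.7 CPM in WT vehicle (log2 change -0.48 ± 0.16, adjusted p = 0.605, edgeR). Numb, an endocytic adaptor, had a log2 change of -0.59 ± 0.36 (adjusted p = 0.9349, edgeR) and Itm2b, a membrane protein that binds App, one of -0.36 ± 0.23 (adjusted p = 0.9573, edgeR).

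Of 13 amyloid-β degrading enzymes, 0 were called in the group fit. Mmp9 was higher with LPS in 9 of 9 pairs and averaged 103 ± 66.6 CPM in APP LPS and 50.1 ± 38.4 CPM in APP vehicle, and 124 ± 43.1 CPM in WT LPS and 54.8 ± 30.3 CPM in WT vehicle (log2 change 1.11 ± 0.40, adjusted p = 0.629, edgeR). Ctsd, the lysosomal protease cathepsin D, was lower in 9 of 9 pairs and averaged 1358 ± 529.9 CPM in APP LPS and 2318 ± 912 CPM in APP vehicle, and 1794 ± 444 CPM in WT LPS and 2259 ± 359 CPM in WT vehicle. Mmp14, a membrane-anchored metalloprotease, had a log2 change of 0.41 ± 0.17 (adjusted p = 0.7231, edgeR).

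Among 24 tested substrates that Adam10 or Adam17 shed (26 listed), 1 rose with LPS averaged over genotypes and 0 fell, beside 3 of 14113 genes called in that comparison. This was Tnf, at 82.7 ± 36.7 CPM in APP LPS and 29.5 ± 12.7 CPM in APP vehicle, and 78.7 ± 16.2 CPM in WT LPS and 25.3 ± 7.56 CPM in WT vehicle (log2 change 1.56 ± 0.24, adjusted p = 0.0148, edgeR). Without WT vehicle 2 its adjusted p was 0.052, which misses the threshold. Tnfrsf1b, a receptor for Tnf, was higher with LPS in 9 of 9 pairs (0.93 ± 0.25, adjusted p = 0.382, edgeR). Trem2 was lower in 9 of 9 pairs and averaged 47.0 ± 28.3 CPM in APP LPS and 138.5 ± 75.6 CPM in APP vehicle, and 85.9 ± 43.4 CPM in WT LPS and 154.5 ± 78.9 CPM in WT vehicle. The median log2 change of the substrates was 0.16, beside -0.02 over all genes tested.

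In APP, where same-numbered libraries varied together, the fit with the library pair as a block called 83 of 14113 genes with LPS (0.588%) and 0 of the 9 genes. In that fit Ctsd fell by 0.76 ± 0.12 on the log2 scale (adjusted p = 0.00433, edgeR) and Trem2 fell by 1.47 ± 0.21 (adjusted p = 0.00383, edgeR), and both passed the threshold with each pair left out of that fit. Both calls rest on that block: in the group fit the adjusted p was 0.9564 for each (edgeR). With the title number as the block, which pairs the APP libraries identically and the WT libraries differently, it was 0.1711 for Ctsd and 0.1479 for Trem2 (edgeR). Tnf rose by 1.44 ± 0.27 (adjusted p = 0.0141, edgeR), but its adjusted p was 0.0553, 0.106 and 0.0576 without APP pairs 1, 2 and 3 and 0.1711 with the title number as the block. With the pair block in WT, Ctsd changed by -0.47 ± 0.13 on the log2 scale (adjusted p = 0.316, edgeR). Trem2 changed there by -1.12 ± 0.23 (adjusted p = 0.0687, edgeR) and Tnf by 1.69 ± 0.30 (adjusted p = 0.0227, edgeR). Differences between genotypes were -0.29 ± 0.175 for Ctsd, -0.34 ± 0.31 for Trem2 and -0.25 ± 0.39 for Tnf, and none passed the threshold. Of the 18 macrophage and microglia markers, 2 fell in APP in the same fit, C1qc among them, and 16 of 18 log2 changes were below 0. The part of macrophage content in the Trem2 and Ctsd values was not tested.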

How the data were processed

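The authors deposited 1 table per library, with an estimated count for each gene symbol. Per the submitters' processing notes FastQC, Trimmomatic, kallisto and DESeq2 were used; the transcriptome build, the strand setting and any collapsing of molecular identifiers were not given in the sources used here. All tables held 16941 genes with a total of at least 10, 0 of them ERCC entries. Values were already whole, so rounding changed none. Reads near 3′ ends cannot separate isoforms that share an end.

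Groups followed the sample titles. One edgeR quasi-likelihood fit (edgeR 4.0.16, limma 3.58.1, R 4.3.3) covered all 19 libraries with 1 coefficient per group, TMM totals and filterByExpr, which kept 14113 genes. Benjamini-Hochberg adjustment ran over all of these, with 0.05 as the threshold for a call. CPM and log2 CPM (prior count 2) were computed from the counts. The test was checked on simulated data.

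WT LPS 1 bears the number 5 in the label but 6 in the deposited file, and no WT vehicle library with a neighbouring number was analysed here. Deviations of paired libraries from their group means correlated over genes with r of 0.13 to 0.352 in the 5 APP pairs, where library and title numbers give the same pairs, and of 0.096 to 0.292 in the 4 WT pairs. In the fit with the pair block, pairs of both genotypes were blocks of the same model, so WT pairs also enter its estimate of the spread. With every r above 0.1 in APP, the calls of that fit given in the Results are mainly those in APP. Of the WT pairs, only the one at 0.096 lay below that value. No libraries of a group were copies (smallest chi-square per degree of freedom 87.41 over 36 comparisons).

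The genes and lists were chosen with earlier results of these data known. Named beside the 9 genes were, from each list, those called and the 3 with the smallest p in LPS against vehicle averaged over genotypes and a mean of at least 10 CPM; the 3 genes of highest Pearson r with each; fixed markers; and Il1b and Tnf. Aplp1 and Bace2 were named in addition after their values were seen, as other genes of the family list. Alternatives were RLE size factors, no filter on low counts, DESeq2 1.42.0, limma voom with the pair as a random effect, title number or library pair as a block, only the groups compared, libraries 57 to 60 left out, each library left out, and CPM on raw totals. Chosen after seeing the data were the pair block without libraries 57 to 60 and without each pair. Positions and coding sequences came from GENCODE M21 (GRCm38) and promoters from RefSeq (GRCm38.p6); neither build is stated for the counts.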

Additional observations from a re-analysis of the deposited data

Results flagged for a closer look

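Ncstn in WT vehicle 2 was at 7.027 CPM, whereas the other WT vehicle libraries lay between 15.83 and 16.47 CPM. Aph1a in WT vehicle 4, one of libraries 57 to 60, was at 106.2 CPM, whereas the others lay between 146.9 and 152 CPM. In each case the gap to the nearest library made up most of the range of the group (a share of 0.932 for Ncstn and 0.889 for Aph1a). The cut-off for a flag is a gap that chance passes in about 1 of 20 groups if the scatter is normal, and 36 groups were examined.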

How the results depend on the processing

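None of the 9 genes was called under any alternative run. Of 40 log2 changes followed, 31 kept their direction under every alternative; of 1314 values, 1214 kept direction and call, 66 gained a call, 3 lost it and 31 changed sign. Averaged over genotypes, the change with LPS stayed between -0.40 and -0.27 for Adam10 and between 0.08 and 0.26 for Adam17. With the library pair as a block, Adam10 gave -0.37 ± 0.09 with an adjusted p of 0.0578 (edgeR; range over alternatives 0.0578 to 0.947).

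Changes of sign were these. With LPS averaged over genotypes, Ncstn was at -0.0116 under limma voom and -0.0218 under the pair block, and Aph1a at -0.0208 under the pair block without libraries 57 to 60. Bace1 was at -0.15 for APP against WT under limma voom. Leaving out a library or a pair gave -0.0844 to 0.25 for Psen2, -0.23 to 0.31 for Ncstn and -0.0247 to 0.19 for Aph1a with LPS averaged over genotypes, and -0.0862 to 0.29 for Adam17 with LPS in APP. For APP against WT averaged over treatments it gave -0.12 to 0.0149 for App, -0.15 to 0.25 for Bace1, -0.14 to 0.0394 for Psen2, -0.0025 to 0.22 for Psenen and -0.14 to 0.0339 for Adam17. The cause was not tested.

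Counts of all genes called also moved; the cause was not tested. With LPS in APP, in WT and averaged over genotypes, DESeq2 called 76, 89 and 178 genes, limma voom with the pair as a random effect 9, 3 and 68, the library pair as a block 83, 21 and 211, and that block without libraries 57 to 60 called 173, 32 and 282, beside 0, 0 and 3 in the group fit. The title number as a block gave 2 in APP and 39 averaged; leaving out libraries 57 to 60 gave 4 and 31. DESeq2 called 69 genes for APP against WT after LPS, 64 with vehicle, 107 averaged and 99 for the interaction; leaving out libraries 57 to 60 gave 1 after LPS, and the title-number block and the pair block without libraries 57 to 60 gave 1 each for the interaction. In the group fit, leaving out each library gave 0 to 2 genes with LPS in APP, 0 in WT and 0 to 11 averaged, and 0 to 1 for APP against WT after LPS. In the fit with the pair block, leaving out each pair gave 9 to 142, 3 to 36 and 116 to 282, and 0 to 1 for the interaction. Without APP LPS 5 alone the averaged count was 11, without WT vehicle 2 it was 0. In WT the title numbers gave correlations of -0.091 to 0.066. The library numbers gave 0.096 for the pair of WT vehicle 3 and 0.12 to 0.292 for the other WT pairs. What WT libraries with neighbouring numbers share is not stated in the labels.

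Averaged over genotypes with the pair block, Timp1, Mmp9, Tnf, Tnfrsf1b, Cd44, Icam1 and Sdc4 were among the listed genes called, as were Dab2, Itm2b, Lrp1, Ctsb, Ctsd, Plat, Mertk and Trem2. With 4 or 5 libraries a group and SEs of 0.14 to 0.42 on averaged changes, smaller differences could not be told from the spread. Bace1 and Ncstn rest on the fewest counts, down to 54 and 107 in a library.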
